A study of Mus musculus with 20 samples.

Results

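The 10 genes described here encode the growth factors and receptors through which tissues recruit and stabilize blood and lymph vessels. They are the ligands Vegfa, Vegfb, Vegfc and Pgf, their receptors Kdr, Flt1 and Flt4, the angiopoietins Angpt1 and Angpt2, and the angiopoietin receptor Tek. They were chosen by gene name from a table of raw read counts on 54532 genes. All 10 were found, and all 10 were among the 15354 genes with enough counts to be tested.

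The libraries came from 10 Tumor samples and 10 Normal kidney samples of Cre-less AAV mice. These C57BL/6 mice carried a Rosa26 LSL-Cas9-EGFP allele and Pax8 Cre, and their kidneys were injected with an adenovirus-associated virus that delivers guide RNAs against Vhl, Pbrm1, Keap1 and Tsc1. The virus carries no Cre, so Cas9 is made where the Pax8 promoter drives Cre, which in the kidney is the tubular epithelium. The normal kidney regions came from the same mice, so both conditions share the Cas9 and Cre alleles and the injection. Mice of both sexes were injected at 8 to 12 weeks of age, and their ages at collection are not given in the sources used here.

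VEGF ligands are secreted proteins that bind receptor tyrosine kinases on endothelial cells. Kdr (VEGFR2) carries most of the growth and permeability signal of Vegfa, Flt1 (VEGFR1) binds Vegfa, Vegfb and Pgf and can act as a decoy, and Flt4 (VEGFR3) binds Vegfc and serves lymphatic and sprouting endothelium. Angpt1, made by cells around vessels, activates Tek (Tie2) and keeps vessels quiet, whereas Angpt2, made by activated endothelium, can oppose it. In the healthy kidney, podocytes and tubules make Vegfa for the fenestrated capillaries beside them. Loss of pVHL, the product of Vhl, stabilizes the hypoxia-inducible factors (HIFs), of which Vegfa is a known target.

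In tumors, transcripts of Vegfa, Vegfb, Pgf and Angpt2 were higher than in normal kidneys, and those of Vegfc, Angpt1, Tek and, by a narrow margin, Flt1 were lower. The calls of Vegfa and Flt1 were each lost when certain libraries were left out, as given below. The largest differences were in Angpt1, which was 5.83-fold lower, Pgf, 4.93-fold higher, Vegfc, 4.19-fold lower, and Angpt2, 3.49-fold higher (10 tumors and 10 kidneys, edgeR quasi-likelihood test). By this test 4 of the 10 genes were higher in tumors and 4 lower at a Benjamini-Hochberg adjusted p under 0.05, against 23.6% of all genes tested higher and 23.8% lower. Kdr and Flt4 did not pass. The median log2 fold change, tumor over kidney, was -0.14 over the 10 genes and -0.021 over all genes tested. No gene of the 10 had every tumor above every kidney, which 5.87% of all genes had, and 1 gene, Tek, had every tumor below every kidney, which 4.74% of all genes had.

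Each library held 18447394 to 24902973 counts in tumors and 14737516 to 26679704 in kidneys, and no library was present more than once. Among the targeted genes, Vhl (log2 fold change -0.49, adjusted p = 0.00179) and Tsc1 (-0.61, adjusted p = 0.00871) were lower in tumors by the edgeR test, Keap1 was higher (0.83, adjusted p = 1.3e-07) and Pbrm1 did not pass (-0.28, adjusted p = 0.23). Counts of transcripts do not measure editing. Markers of the collecting duct were lower in 9 of 9 cases tested, and those of the thick ascending limb and distal tubule in 7 of 8. Of 10 proximal tubule markers, 4 were lower and none higher.

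Several libraries stood apart. Normal kidney 9 had a TMM scaling factor of 0.749, against 1.03 to 1.14 in the other kidneys, and its genes with at least 8 kb of exons sat at a median of -1.11 log2 units from the other kidneys, while genes under 2 kb sat at 1.01. The 9 other kidneys lay between -0.04 and 0.11 for the long genes. Kdr (9030 bases of exons), Flt1 (13504) and Flt4 (8232) are long genes, and Vegfb (1605) is a short one. Normal kidneys 5, 7 and 8 had 128 to 1350 CPM (counts scaled to the size of the library) of Havcr1, a marker of injured tubules, against 3.18 to 35.7 in the other 7 kidneys. Tumors 7 and 9 had the highest level of endothelial markers, and Tumor 7 also had the highest summed levels of fibroblast and macrophage markers. Values without these libraries are given beside the results that changed most.

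The genes lie on GRCm38 (mm10), with the same coordinates in the count table and in GENCODE M21 for all 10. Vegfa is at chr17:46016993-46032369, Vegfb at chr19:6982473-6987651, Pgf at chr12:85166635-85177790, Kdr at chr5:75932827-75978458, Flt1 at chr5:147561604-147726011, Angpt1 at chr15:42424723-42676977 and Angpt2 at chr8:18690263-18741562, all on the minus strand. Vegfc (chr8:54077606-54187096), Flt4 (chr11:49609263-49652739) and Tek (chr4:94739289-94874976) are on the plus strand.

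Since HIFs bind DNA at a core of ACGTG or GCGTG, the 250 bases before the transcription start were searched for both on either strand in the RefSeq promoters of GRCm38.p6, which held 8 of the 10 genes (not Angpt1 or Angpt2). A core was found in 4 of the 8, against 38.6% of all 32851 promoters of the table. All sites found had the form GCGTG, and none was in the windows of Vegfa, Vegfc, Flt4 or Tek. They are shown on the strand of the gene with the core in capitals, CACGC where it lies on the opposite strand, because Vegfb and Pgf rose in tumors while Kdr and Flt1, with the same letters, did not. The RefSeq start of Pgf and of Flt4 lies inside the gene as given above, so their windows do too. A match in these letters is not a measured binding site, and Vegfa is known to be controlled from sequence farther upstream.
Vegfb, chr19:6987872-6987900: ggtccttcaggtCACGCatctcctcaccc
Vegfb, chr19:6987716-6987744: ccggtggggagcGCGTGtttaggtcacat
Pgf, chr12:85177421-85177449: gccctgcggggtCACGCgcactcaggtct
Kdr, chr5:75978570-75978598: gtgggggagtggGCGTGggaaaccgggaa
Kdr, chr5:75978528-75978556: atccagtgggggGCGTGgccggacgcagg
Flt1, chr5:147726179-147726207: ctagcgccaccgCACGCgcgctctggccc

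Vegfa, the main driver of vessel growth and permeability, was the most abundant of the 10 genes per length in the kidneys. Its log2 CPM was 6.3 at the lowest, 7.7 at the median and 7.89 at the highest in kidneys, and 7.34, 7.99 and 9.02 in tumors. In 6 tumors it exceeded every kidney (Tumors 1, 4, 5, 6, 8 and 9), although that of Tumor 6 did so by little, and Tumors 7 and 10 lay below the median kidney. Its log2 fold change, tumor over kidney, was 0.66 (standard error, SE, 0.216, adjusted p = 0.0162), a 1.58-fold difference. The 3 kidneys with high Havcr1 and Normal kidney 9 held the 4 lowest values, 7.22 or less. Without those 4 kidneys the log2 fold change of Vegfa was 0.35 (adjusted p = 0.134), and without kidneys 5, 7 and 8 alone it was 0.51 (adjusted p = 0.075), so its call rested on them. By limma-voom with quality weights the log2 fold change of Vegfa was 0.28 (adjusted p = 0.0358).

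Podocyte markers, unlike Vegfa, were lower in tumors. Of 10 such genes, 7 were lower in tumors and none higher, with a median log2 fold change of -2.74. Their summed level was 151 CPM in Normal kidney 9, 697 to 1130 in the other kidneys and 165 to 353 in tumors. The slit diaphragm gene Nphs1 averaged 38.5 CPM in kidneys and 0.613 in tumors. The part of the podocytes in the kidney level of Vegfa was not tested. In bulk tissue, fewer cells of a type and less RNA per cell cannot be told apart.

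Vegfb, with 2 of the GCGTG cores in its promoter window, is a Flt1 ligand linked to fatty acid handling by endothelium more than to sprouting. It rose by 0.84 (SE 0.181, adjusted p = 6.2e-04, edgeR), a 1.8-fold difference. Its log2 CPM was 4.84, 5.77 and 6.49 (lowest, median, highest) in kidneys and 5.84, 6.64 and 6.92 in tumors. In 7 of the 10 tumors it was above every kidney, and the highest kidney was Normal kidney 9, the library with more counts on short genes. Tumor 7 was the lowest tumor. Without Normal kidney 9 the log2 fold change of Vegfb was 0.94, and without the injured kidneys 5, 7 and 8, of which 5 and 8 had the lowest values, it was 0.65 (adjusted p = 0.00191).

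Pgf, the placental growth factor, binds Flt1 but not Kdr and is low in most adult organs. It was the rarest of the 10 transcripts in kidneys, with 8 to 34 counts in each library, and reached 22 to 212 counts in tumors. On the log2 CPM scale the kidneys lay at -0.79, -0.12 and 1.03 (lowest, median, highest) and the tumors at 0.07, 2.05 and 3.18. Tumors fell into a wide range: Tumors 5, 7, 8 and 9 had 2.81 or more, while Tumors 3, 4 and 10 had 0.7 or less, inside the kidney range, and Tumor 2 was level with the highest kidney at 1.03. Pgf rose by 2.30 log2 units (SE 0.432, adjusted p = 1.6e-04). All 3 ligands of Flt1 were thus higher in tumors over all 20 libraries, although the call of Vegfa rested on a few kidneys.

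Vegfc, the ligand of Flt4 and the main growth factor of lymphatic vessels, went the other way. Its log2 CPM was 1.63, 2.45 and 2.84 (lowest, median, highest) in kidneys and -1.04, 0.14 and 1.87 in tumors. Tumor 7 was the one tumor inside the kidney range, and the other 9 tumors were below every kidney. Vegfc fell by 2.07 log2 units (SE 0.323, adjusted p = 2.1e-05), and without Tumors 7 and 9 its log2 fold change was -2.58 (adjusted p = 5.6e-08). Counts were 53 to 145 in kidneys and 7 to 83 in tumors, so the tumor values carry more counting error. Vegfd, the other ligand of Flt4, was 7.26 CPM ± 1.8 (SD, n = 10) in kidneys and 13 ± 22.4 in tumors, and did not pass (adjusted p = 0.201). Tumor 7 had 75.8 CPM of Vegfd and Tumor 9 had 16.6, against 2.88 to 7 in the other 8 tumors, and without both Vegfd was lower (log2 fold change -0.65, adjusted p = 0.0105, edgeR).

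**Figure D1:**
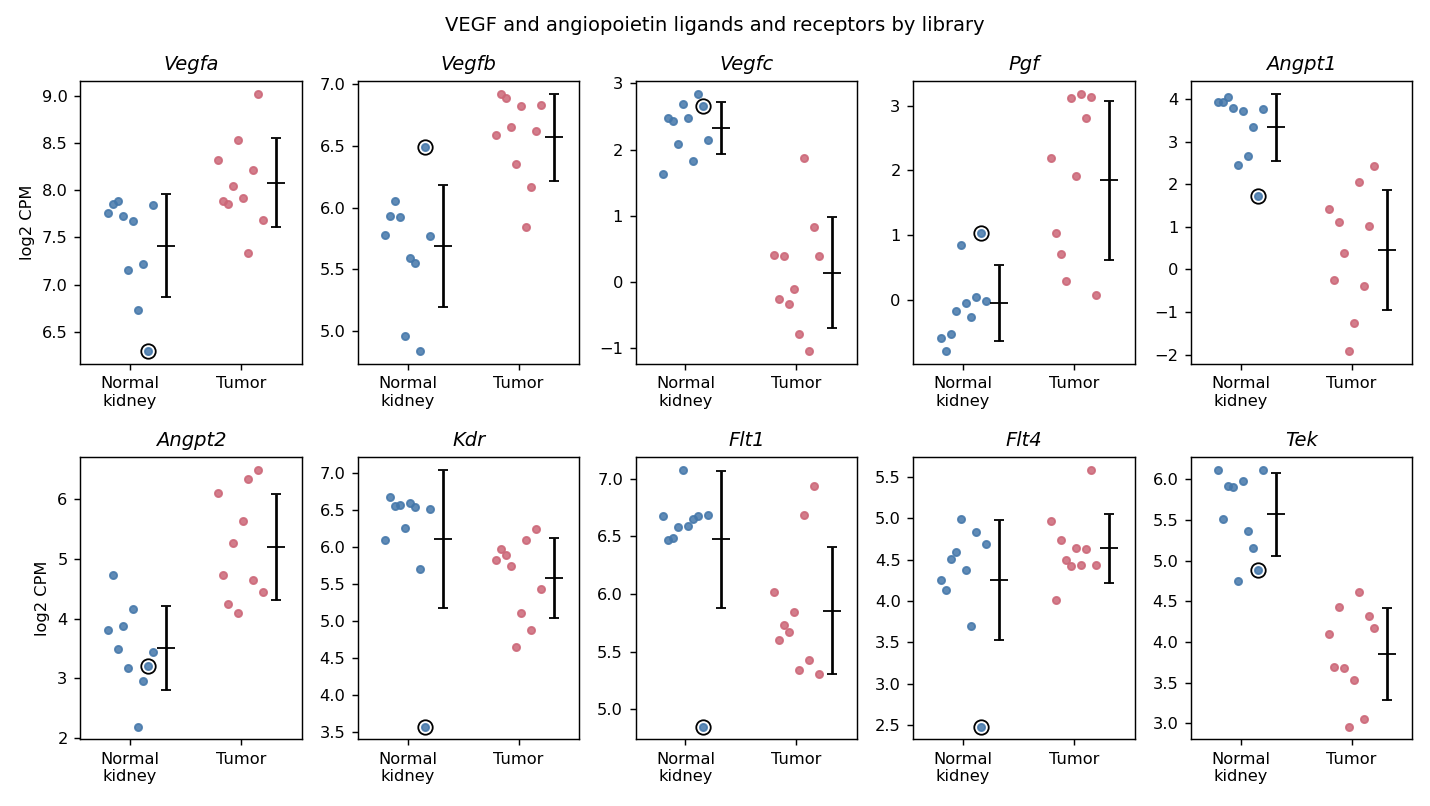
Log2 CPM (vertical axis) of each ligand and receptor in the 10 normal kidneys and 10 tumors; points are libraries in the order of their numbers, bars show the mean and SD, and the circled point is Normal kidney 9. Tek is the one gene whose groups do not overlap, and Normal kidney 9 is far below the other kidneys for Kdr (3.58), Flt1 (4.85) and Flt4 (2.48).

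Among the VEGF receptors, Flt1 and Kdr had nearly equal log2 fold changes, -0.60 and -0.62. Over all 20 libraries Flt1 narrowly passed as lower and Kdr did not, while Kdr passed without Normal kidney 9. Flt1 lost its call under 19 of 33 alternatives. Kdr, the main signaling receptor, had a log2 CPM of 3.58 in Normal kidney 9 and 5.71 to 6.68 in the other 9 kidneys, against 4.65, 5.78 and 6.24 (lowest, median, highest) in tumors. The median kidney was at 6.53, and 7 kidneys were above every tumor. Kdr differed by a log2 fold change of -0.62 (SE 0.274, adjusted p = 0.067, edgeR, 95% interval -1.19 to -0.05), without Normal kidney 9 it was -0.75 with an adjusted p of 0.00262, and without Tumors 7 and 9 it was -0.79 with an adjusted p of 0.0298.

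Flt1, the high-affinity receptor of Vegfa, Vegfb and Pgf, was at 4.85 log2 CPM in Normal kidney 9 and at 6.47 to 7.08 in the other kidneys. Tumors 7 and 9 had 6.69 and 6.94, inside the kidney range, and the other 8 tumors had 5.31 to 6.02. Its fitted difference was -0.60 log2 units (SE 0.235, adjusted p = 0.0414, 95% interval -1.09 to -0.11), near the threshold. It was -0.71 (adjusted p = 0.00569) without Normal kidney 9 and -0.93 (adjusted p = 5.2e-04) without Tumors 7 and 9. Leaving out single libraries moved its adjusted p to between 0.00569 and 0.0759 by the same test.

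Flt4, the receptor of Vegfc, was at 2.48, 4.44 and 4.99 log2 CPM (lowest, median, highest) in kidneys and 4.01, 4.57 and 5.59 in tumors. The groups overlapped almost fully, with Normal kidney 9 lowest and Tumor 9 highest. The difference in Flt4 was 0.31 log2 units (SE 0.235, adjusted p = 0.286, 95% interval -0.18 to 0.80), so the interval spans both directions. Lymphatic endothelial markers did not move one way. Prox1, the transcription factor that sets lymphatic identity but is also made by tubule cells, fell by 5.21 on the log2 scale (adjusted p = 2.4e-09), whereas Lyve1, which macrophages also make, rose by 3.23 (adjusted p = 8.6e-04). Reln and Mmrn1 were lower and Pdpn higher, so 2 of 5 tested rose and 3 fell.

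Tek showed the clearest difference of the 10. Its log2 CPM was 4.75, 5.70 and 6.12 (lowest, median, highest) in kidneys and 2.96, 3.89 and 4.61 in tumors, so that every tumor was below every kidney. Tumors 5 and 8 were lowest, and Tumors 7 and 3 were highest. Tek fell by 1.70 log2 units (SE 0.229, adjusted p = 3.2e-06, edgeR), a 3.26-fold difference, and its log2 fold change stayed between -2.01 and -1.62 over the 33 alternatives tried. The injured kidneys 5, 7 and 8 and Normal kidney 9 held the 4 lowest kidney values, 4.75 to 5.36, and without those 4 the log2 fold change was -2.01.

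Angpt1, the agonist of Tek, was at 1.72, 3.74 and 4.05 log2 CPM (lowest, median, highest) in kidneys and -1.91, 0.70 and 2.43 in tumors. In 8 tumors it was below every kidney, and Tumors 7 and 10, at 2.05 and 2.43, were above Normal kidney 9 alone, since the other kidneys had 2.45 or more. Tumor 5, with 3 counts, was the lowest. Angpt1 fell by 2.54 log2 units (SE 0.479, adjusted p = 1.7e-04). Pericyte, mesangial and smooth muscle markers, from cells that are known sources of Angpt1, were higher in 3 of 14 cases and lower in 2, with a median log2 fold change of 0.06. This rested on Tumor 7, without which 3 were higher and 7 lower, with a median of -0.62. The markers that fell over all libraries were the mesangial gene Itga8 (-2.61, adjusted p = 7.8e-06) and Gata3 (-5.08, adjusted p = 4.7e-06), which the collecting duct also makes. Those that rose were Cspg4 (3.60, adjusted p = 1.6e-09, edgeR), Kcnj8 (1.28, adjusted p = 0.0051) and Abcc9 (0.80, adjusted p = 0.0151). Without Tumors 7 and 9, Cspg4 (3.62) and Kcnj8 (1.00) stayed higher and Abcc9 did not pass (0.52, adjusted p = 0.0669, edgeR). Cspg4 averaged 347 CPM in tumors, against 91.1 for Rgs5 and 35.8 for Pdgfrb, and which cells made it was not tested.

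Angpt2, the context-dependent antagonist that endothelium makes when activated, rose while its counterpart fell. Its log2 CPM was 2.19, 3.47 and 4.74 (lowest, median, highest) in kidneys and 4.10, 5.00 and 6.50 in tumors. Tumors 1, 4, 6, 7 and 9 were above every kidney, and the other 5 tumors were below or level with Normal kidney 2, the highest kidney. Angpt2 rose by 1.80 log2 units (SE 0.347, adjusted p = 2.1e-04), and by 1.40 (adjusted p = 8.8e-04) without Tumors 7 and 9. Normal kidneys 5, 7, 8 and 9 held its lowest kidney values, 3.21 or less. Its log2 fold change stayed between 1.26 and 2 over the 33 alternatives and kept its call in each.

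**Figure D2:**
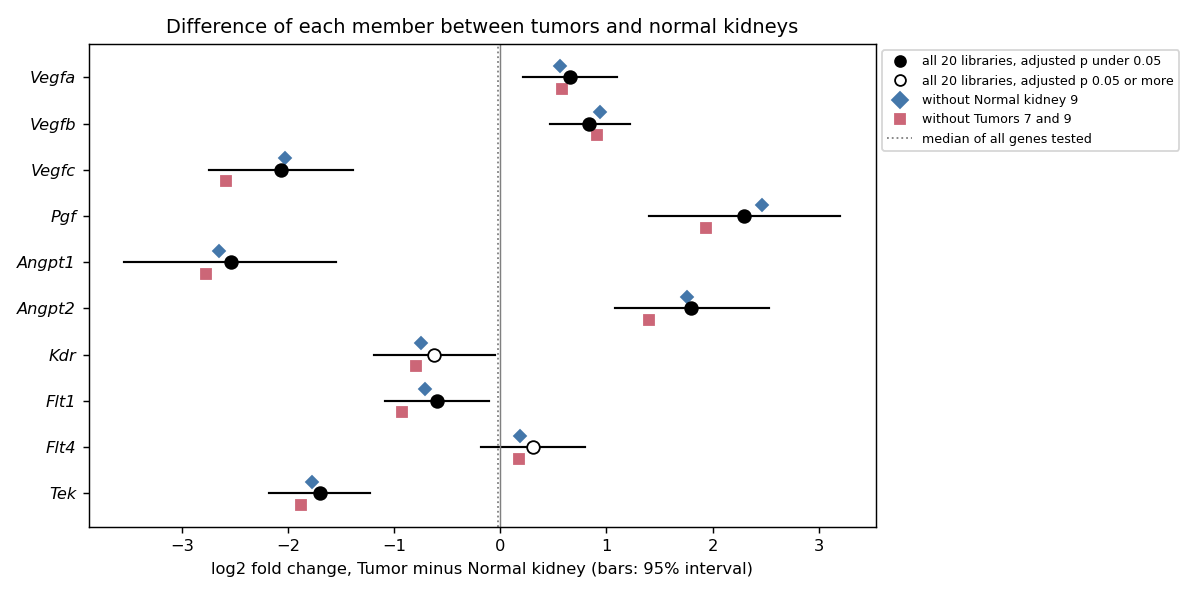
Log2 fold change, tumor minus normal kidney, of each gene from the edgeR fit (circles, filled where the adjusted p was under 0.05) with 95% intervals, and the same without Normal kidney 9 (diamonds) and without Tumors 7 and 9 (squares). Kdr is open over all libraries at -0.62, and no gene changes direction when these libraries are left out.

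Ratios of 2 genes within a library need no scaling between libraries, and they show the change in balance directly. Kidneys held about equal counts of both angiopoietins: the log2 ratio of Angpt2 to Angpt1 was 0.18 ± 0.68 (SD, n = 10) in kidneys, from -0.56 to 1.51. In tumors it was 4.87 ± 1.47, from 2.04 in Tumor 10 to 7.16 in Tumor 6, so all 10 tumors were above all 10 kidneys. The difference of 4.69 is a 25.9-fold shift of the ratio (two-sided permutation test with 100000 resamples, adjusted p = 1.3e-04 over 10 such values).

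The log2 ratio of Vegfa to Flt1 rose from 0.94 ± 0.52 in kidneys to 2.23 ± 0.60 in tumors (difference 1.29, permutation test, adjusted p = 4.4e-04), and 9 of 10 tumors were above every kidney. Tumor 7, at 0.65, was the exception. The log2 ratio of Vegfc to Flt4 fell from -1.95 ± 0.82 to -4.61 ± 0.90 (difference -2.67, permutation test, adjusted p = 1.3e-04), with 9 of 10 tumors below every kidney and Tumor 7 again the exception. Angpt1 fell relative to its receptor as well. The log2 ratio of Angpt1 to Tek was -2.25 ± 0.46 in kidneys and -3.51 ± 1.08 in tumors (difference -1.27, permutation test, adjusted p = 0.00388), and 7 tumors were below every kidney. Flt1 to Kdr differed by -0.09, with an adjusted p of 0.746 by the same permutation test, and by 0.01 without Normal kidney 9.

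**Figure D3:**
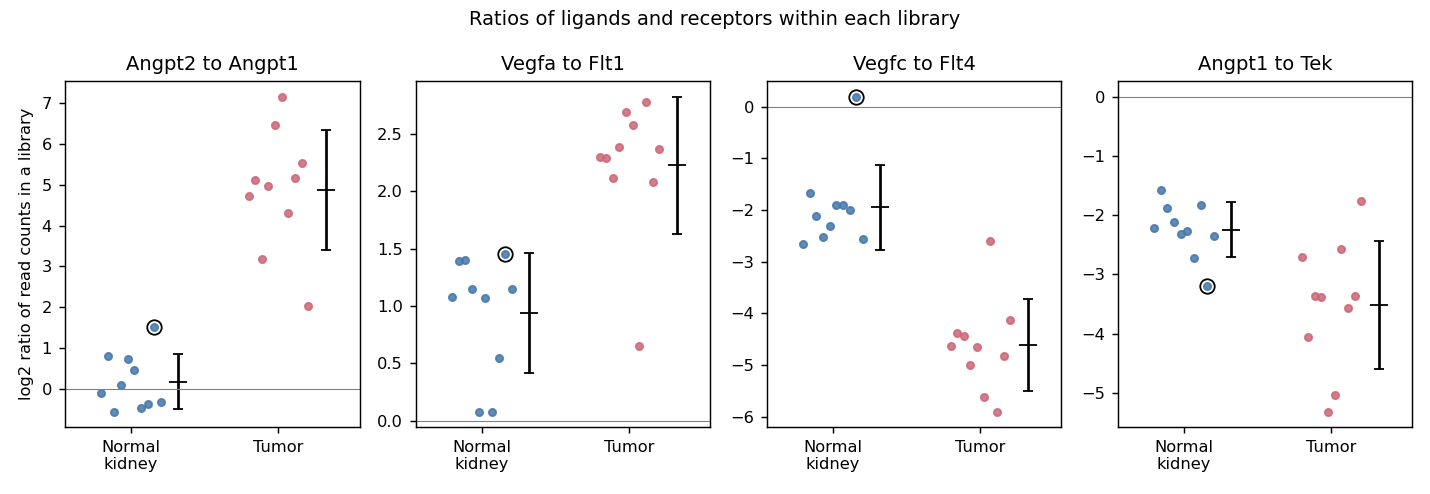
Log2 ratio of the counts of 2 genes in each library (vertical axis), for normal kidneys and tumors, with the mean and SD as bars and Normal kidney 9 circled. The ratio of Angpt2 to Angpt1 separates all tumors (2.04 or more) from all kidneys (1.51 or less), and Tumor 7 is the tumor nearest to the kidneys for Vegfa to Flt1 and Vegfc to Flt4.

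Since Kdr, Flt1 and Tek are mainly endothelial transcripts and activated endothelium makes Angpt2, their levels were also set against 15 pan-endothelial markers. These markers hold none of the 10 genes. Which cells made Angpt2 here was not tested, so its value relative to these markers is not a level per endothelial cell. The mean log2 CPM of these markers was 5.09 ± 0.12 (SD, n = 10) in kidneys and 4.71 ± 0.59 in tumors (difference -0.38, permutation test, p = 0.0601). Tumors were more uneven, from 3.98 in Tumor 5 to 5.73 in Tumor 9. Of the 15 markers 4 were lower in tumors (Cldn5, Eng, Sox17 and Adgrl4) and 1 higher, the junction protein Cdh5 (0.83, adjusted p = 0.0139, edgeR), while Pecam1 (0.07) and Emcn (0.00) did not pass. Without Tumors 7 and 9, 10 of the 15 were lower and none higher, with Cdh5 at 0.38 (adjusted p = 0.105, edgeR) and Pecam1 lower (-0.34, adjusted p = 0.0235). With Tumor 7 alone left out 6 were lower and 1 higher.

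Relative to these markers, Tek remained lower in tumors by 1.33 (permutation test, adjusted p = 1.5e-04) and Angpt2 higher by 2.08 (adjusted p = 1.3e-04). For Tek 8 of 10 tumors were below every kidney, and for Angpt2 9 of 10 were above. Kdr differed by -0.14 (permutation test, adjusted p = 0.754) and Flt1 by -0.24 (adjusted p = 0.398), differences within the spread of the libraries. Without Normal kidney 9 both passed as lower, Kdr by -0.43 (permutation test, adjusted p = 0.0295) and Flt1 by -0.42 (adjusted p = 0.00381). Flt4 was higher relative to the 15 markers by 0.77 (permutation test, adjusted p = 0.00774), but by 0.17 (adjusted p = 0.575) relative to Pecam1, Cdh5 and Emcn alone.

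**Figure D4:**
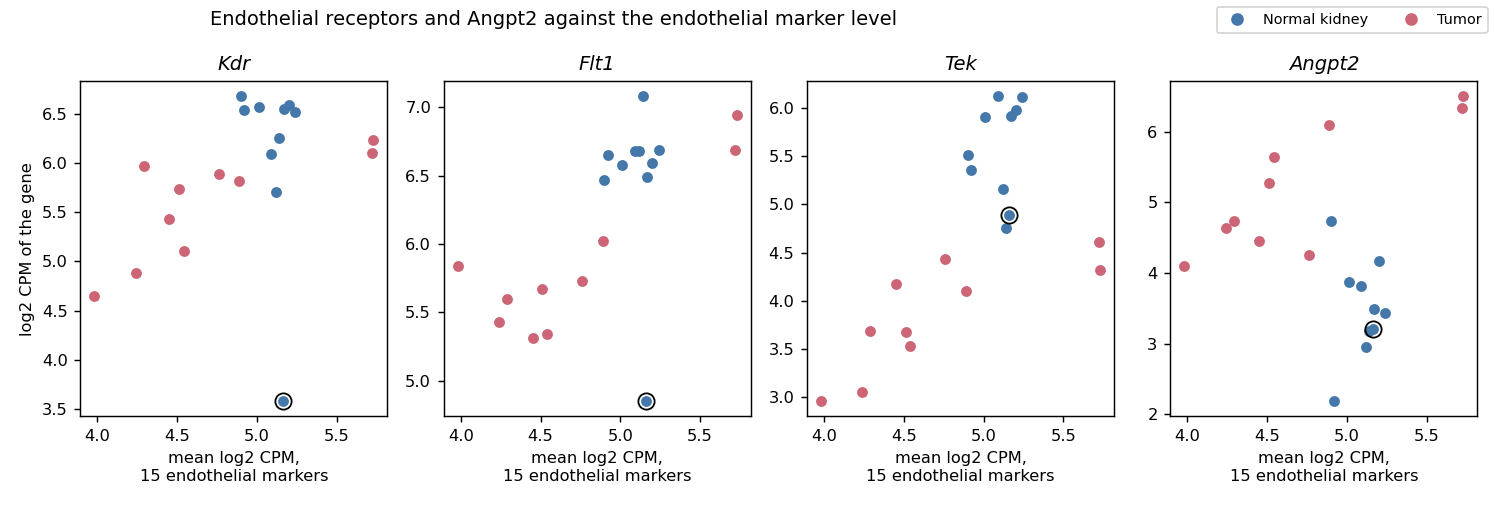
Log2 CPM of Kdr, Flt1, Tek and Angpt2 (vertical axes) against the mean log2 CPM of 15 pan-endothelial markers (horizontal axes), one point for each library, with Normal kidney 9 circled. Tumors 7 and 9, at 5.72 and 5.73, are farthest right, tumors lie below kidneys for Tek and mostly above them for Angpt2, and Normal kidney 9 is the low point for Kdr and Flt1.

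Glomerular and arterial endothelial markers were lower in tumors or did not pass, whereas the lymphatic ones moved both ways as given above. Of 4 glomerular endothelial markers tested, 3 were lower (Ehd3, Tbx3 and Lpl) and none higher. Pi16 did not pass (1.79, adjusted p = 0.0603, edgeR), and was at -0.25 without Tumor 7. Sost, at 0 in every tumor, had too few counts over the libraries to be tested. Of 7 arterial markers, 4 were lower (6 without Tumors 7 and 9), Sema3g most at -3.24 (adjusted p = 3.9e-07, edgeR). In kidneys Sema3g averaged 150 CPM and Lpl 367, against 98.5 for the pan-endothelial marker Pecam1. Which cells made Sema3g and Lpl was not tested, so their falls do not measure a loss of these vessels. The part that a loss of kidney-specific vessels plays in the lower Tek, Kdr and Flt1 was not tested.

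Within the tumors, Tek varied with several of the other genes. Over the 10 tumors, Angpt1 and Tek had a Pearson's r of 0.86 (permutation test, p = 0.00153, adjusted p = 0.037 over 45 pairs of the 10 genes) and a Spearman's rho of 0.84 (p = 0.00366, adjusted p = 0.0844, permutation test). Leaving out Tumors 5 and 6, the farthest from the median of Angpt1, gave an r of 0.80. For Vegfc and Tek r was 0.83 (permutation test, p = 0.00242, adjusted p = 0.037) and rho 0.82 (p = 0.00563, adjusted p = 0.0844), with an r of 0.71 without Tumors 7 and 8. For Kdr and Tek r was 0.85 (permutation test, p = 0.00247, adjusted p = 0.037) and rho 0.83 (p = 0.00495, adjusted p = 0.0844), and r fell to 0.59 without Tumors 5 and 8. None of the 45 pairs passed on the adjusted p of rho. The tumors low in Tek, 5 and 8, were also lowest in endothelial markers, and the part of that level was not tested.

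Compared per kilobase of exon, the order of the genes changed between tissues. In kidneys the medians were 48.4 CPM per kb for Vegfa, 34.1 for Vegfb, 11.1 for Tek, 10.2 for Kdr and 7.29 for Flt1, followed by Angpt2 (2.97), Flt4 (2.64), Angpt1 (2.55), Vegfc (2.19) and Pgf (0.284). Vegfb was above Tek and Vegfc above Pgf in all 10 kidneys, while the other neighbours held this order in 6 to 8 kidneys and their ranges overlapped. In tumors Vegfb (61.9) and Vegfa (59.2) led, each above the other in 5 tumors, and Angpt2 came next with 8.8 CPM per kb, above Kdr in 9 of 10 tumors. Kdr (6.08), Flt1 (3.84), Tek (3.16), Flt4 (2.87), Pgf (1.4), Vegfc (0.417) and Angpt1 (0.3) followed, each above the next in 7 to 9 tumors except Tek, which was above Flt4 in 4. Tek thus stood at rank 3 in kidneys and rank 6 in tumors, and Angpt1 was last in tumors.

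The wider pathway was described by 7 lists of 102 genes in all, of which 98 were tested. In tumors 27 of them (27.6%) were higher and 28 (28.6%) lower, near the shares of all genes tested (23.6% and 23.8%). The median log2 fold change of the 98 genes was 0.06. Shares higher and lower differed by list, at 16.7% and 8.33% for partners and 56.2% and 0% for VEGF-induced genes. They were 21.1% and 52.6% for adaptors and effectors, and 0% and 42.9% for Notch genes. For inhibitors they were 33.3% and 25%, for other ligands and receptors 31.8% and 40.9%, and for transcription factors 10% and 20%. The lists are short, and some of these shares were near those of all genes tested.

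Of 12 co-receptors and partners, 2 were higher and 1 lower, with a median log2 fold change of 0.24. Without Tumor 7, 2 were higher and 4 lower (median -0.18), and without Tumors 7 and 9, 2 and 6 (median -0.43). The neuropilins, which hold VEGF for Kdr and Flt4, were among those that did not pass (Nrp1 -0.30, adjusted p = 0.202, and Nrp2 -0.22, adjusted p = 0.534, edgeR), although Nrp1 passed as lower without Normal kidney 9 (-0.41, adjusted p = 0.0279) and Nrp2 without Tumor 7 (-0.58, adjusted p = 0.0188). Tie1, the orphan partner of Tek, was at -0.34 (adjusted p = 0.136), and at -0.44 (adjusted p = 0.0433) without Tumor 7. Ptprb (VE-PTP), the phosphatase that restrains Tek, fell by 0.97 (adjusted p = 0.0103). Angpt4, at 0.816 CPM in kidneys and 2.08 in tumors, did not pass (adjusted p = 0.103), and Tumor 7 alone had 13.7. The other 9 tumors averaged 0.78 CPM of Angpt4. Itgb3, an integrin subunit of vitronectin receptors, rose by 3.38 (adjusted p = 2.7e-07), with 73 to 103 CPM in tumors and 2.1 to 25.2 in kidneys, and tumor and other cells can make it.

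Genes that VEGF is known to induce in endothelium were higher in 9 of 16 cases and lower in none, with a median log2 fold change of 0.89. Kcne3, a potassium channel subunit, rose by 4.92 (adjusted p = 2.6e-09), from 0.433 CPM ± 0.225 (SD, n = 10) to 13.1 ± 5.97. Tumor 7, with an endothelial marker level of 5.72, had the lowest Kcne3 of the tumors (3.07 CPM). Which cells made Kcne3 was not tested. Apln, the ligand of the apelin receptor made by sprouting tip cells, rose by 3.49 (adjusted p = 6.9e-09), from 8.33 to 93.7 CPM. Esm1, a tip cell proteoglycan, rose by 2.51 (adjusted p = 1.2e-07), from 11.1 to 63.3 CPM. For each of these 3 genes every tumor was above every kidney. Dll4, the Notch ligand of tip cells, rose by 1.08 (adjusted p = 1.8e-04). Several genes of this list, among them Adamts1, Igfbp3 and Rcan1, are also made by epithelium, so the count is not one of endothelium alone. Without Tumors 7 and 9 the count was 8 of 16 and the median 0.46.

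The receptors' adaptors and effectors were lower in 10 of 19 cases and higher in 4, with a median of -0.39. Plcg2 (-1.70, adjusted p = 1.0e-04) and the exchange factor Vav3 (-1.58, adjusted p = 7.8e-08) fell, and so did Nos3, the endothelial nitric oxide synthase (-0.89, adjusted p = 0.00383). Shc2 rose most in this list, by 4.38 (adjusted p = 1.1e-08). Of 7 Notch genes of vessels, 3 were lower (Jag1, Jag2 and Hey2) and none higher, with Hey2, a target of Notch in arteries, at -1.73 (adjusted p = 0.00181). Jag1 and Jag2 are made by tubules too.

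Among angiogenesis inhibitors, 4 of 12 (33.3%) were higher and 3 (25%) lower, against 23.6% and 23.8% of all genes tested. Without Tumors 7 and 9 these counts were 3 and 5. Col4a3, whose collagen chain of the glomerular basement membrane is the source of tumstatin, fell by 2.59 (adjusted p = 3.0e-07). Podocytes make it. Pf4, a platelet and macrophage chemokine, rose by 3.09 (adjusted p = 0.00745), with 3.49 to 326 CPM over the tumors, and did not pass without Tumor 7 (0.90, adjusted p = 0.151). Of 3 platelet markers tested, 2 rose, and without Tumors 7 and 9 none rose and 1 fell. Of 10 macrophage markers 6 rose and 1 fell, and 2 rose without those tumors.

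Of 22 other angiogenic ligands and receptors, 7 rose and 9 fell. Without Tumor 7 these counts were 7 and 11, and without Tumor 7 and Normal kidney 9 they were 7 and 14. Adm (adrenomedullin), a hypoxia-induced vasodilator and endothelial growth factor, rose by 3.85 (SE 0.175, adjusted p = 7.0e-13), from 10.1 CPM ± 3.49 to 146 ± 27.9, and was 114 or more in every tumor and 19.1 or less in every kidney. Fgf1 (-2.49) and Bmp4 (-2.26) fell, with every tumor below every kidney. Pdgfra fell too (-1.62, adjusted p = 0.034, edgeR). Tumor 7, at 130 CPM of Pdgfra, was above every kidney, and the other 9 tumors were below every kidney. Without Tumor 7 the log2 fold change of Pdgfra was -3.07. Ccbe1, a cofactor needed to activate Vegfc, was also lower (-1.54, adjusted p = 0.046, edgeR). Without Normal kidney 9 Ccbe1 narrowly missed the threshold (-1.58, adjusted p = 0.0506). Tumor 7, at 26.1 CPM of Ccbe1, was above every kidney and the other 9 tumors were below every kidney, and without Tumor 7 the log2 fold change was -2.92 (adjusted p = 2.1e-06). Among transcription factors of Vegfa, Epas1 (HIF2α) fell by 1.02 (adjusted p = 7.6e-04) and Hif1a by 0.67 (adjusted p = 0.028), while Hif3a rose by 4.36 (adjusted p = 3.9e-10), from 2.38 to 49 CPM. HIF proteins are set mainly by their stability, so these transcript levels do not measure HIF activity.

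**Figure D5:**
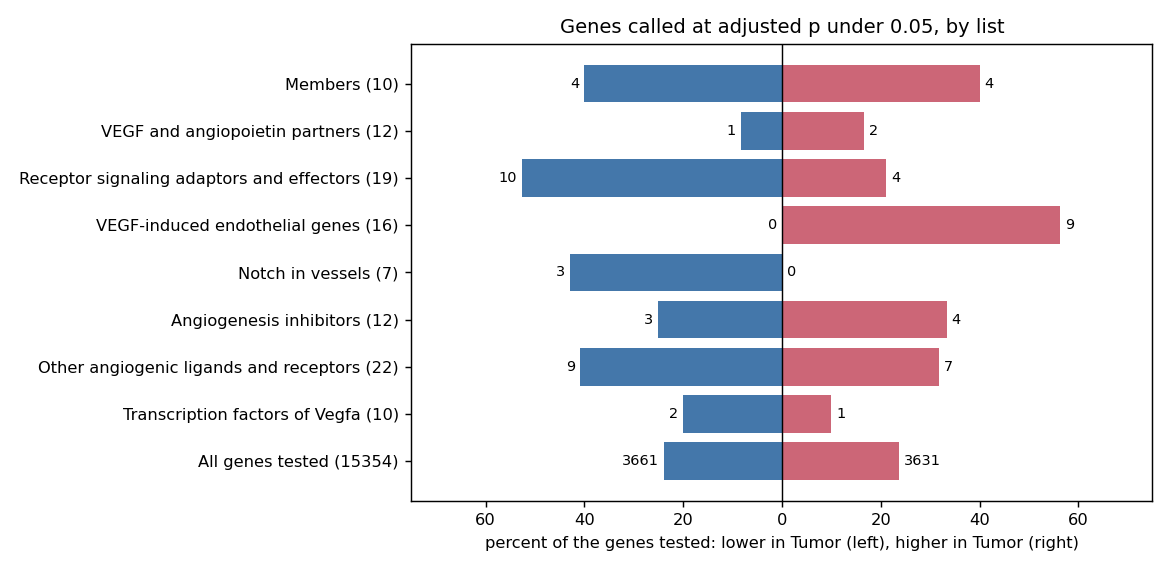
Percent of the genes tested that were higher (right) or lower (left) in tumors at an adjusted p under 0.05, for the 10 ligands and receptors (named Members), the 7 pathway lists and all genes; the number tested is in parentheses, and the numbers beside the bars count genes. VEGF-induced genes were higher in 9 of 16 and lower in none, and the adaptors lower in 10 of 19.

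Genes with the most similar variation across libraries were found by Spearman's rho of log2 CPM after the mean of each condition was subtracted, over 20 libraries and 13230 protein-coding genes. These are descriptions, and libraries share depth, gene length effects and cell makeup. Kdr was most like Rasgrp3 (rho 0.94, and 0.92 without Normal kidney 9), Cdk14 (0.89) and Sema3g (0.88). Angpt2 was most like Six5 (0.88), the pericyte marker Rgs5 (0.86) and Ntn4 (0.84). Tek was most like Samd12 (0.92), Ptprc (0.89) and Jag2 (0.87), and Vegfa like 2900026A02Rik (0.91), Cys1 (0.85) and Nek1 (0.84). Flt1 went with Rnf144b (0.92), Slit3 (0.91) and Vsig2 (0.89), Flt4 with Nsd3 (0.91), Ubn2 and Prdm10 (0.86 each), and Vegfb with Rad51c (0.95), Imp4 (0.94) and Tmem177 (0.91). For Pgf these were Grk5 (0.88), Ppm1d (0.86) and Trp53i11 (0.84), for Vegfc Tle1 (0.86), Asb4 (0.82) and Dcn (0.80), and for Angpt1 they included Unc5c (0.85) and Stk26 (0.84).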

How the data were processed

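Frozen tissue was pulverized, total RNA was extracted with Trizol, and libraries enriched for poly A were made and sequenced by a company, which counted reads on genes. The authors deposited these raw counts, unnormalized, for 54532 genes on mm10 (GRCm38). The aligner, the counter and the use of strand are not given in the sources used here, so overlapping genes carry uncertain counts.

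Counts were scaled by TMM and tested with the quasi-likelihood test of edgeR 4.0.16 (R 4.3.3, limma 3.58.1, DESeq2 1.42.0), tumors against kidneys with no covariate, after filterByExpr (count minimum 10) kept 15354 genes. P-values were adjusted by Benjamini-Hochberg over all of them. Log2 CPM used a prior count of 2 and ratios a count of 0.5. Ratios were compared by two-sided permutation tests with 100000 resamples, whose smallest p is 1e-05. The test was tried on simulated counts with known changes. Across 90 same-condition comparisons of libraries, chi-square divided by its degrees of freedom was 13.98 or more, so none looked like a repeat deposit.

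The 10 genes and the lists of pathway genes and markers were chosen with earlier results of these data known. Named are the 10 genes, the 8 largest rises and falls of at least 1 in log2 fold change among the lists, Nrp1, Nrp2, Tie1, Ptprb, Vegfd, Angpt4, Hif1a and Epas1, and the 3 genes most like each of the 10, of which 1 for Angpt1 is not reported here. Other list and marker genes were named after their values were seen, for context. Alternatives changed the scaling, filter, test, fold limit, gene length trend, pairing by number, marker list and libraries. Leaving out Normal kidneys 5, 7 and 8, those with 9, and Tumors 7 and 9 was chosen after seeing the data.

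Samples were grouped by their labels. The submitters' processing notes name mm10. Tumors and kidneys are described as coming from the same 10 mice, without a statement that equal numbers mark a mouse. Pairing was therefore not used in the main test. Ccl21a has no single match in the table and was not tested.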

Additional observations from a re-analysis of the deposited data

Results flagged for a closer look

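Over 40 groups of 10 libraries (10 genes and 10 ratios in each condition), 10 held a library far from the others, where chance flags about 1 in 20 independent groups. The ratios reuse the same genes, so the 40 groups are not independent and the count does not measure an excess over chance. Normal kidney 9 accounted for 7 of the 10. It was far below the other kidneys in log2 CPM for Kdr (3.58), Flt1 (4.85) and Flt4 (2.48), had the highest log2 ratio of Vegfc to Flt4 (0.19), and was low relative to the endothelial markers for Kdr (-1.58), Flt1 (-0.31) and Flt4 (-2.69). Its endothelial marker level, 5.16, lay within the range of the kidneys, 4.90 to 5.24, and long genes as a whole were low in it, by a median of 1.11 below the other kidneys. Tumor 7 stood apart with a low log2 ratio of Vegfa to Flt1 (0.65) and a low Flt4 relative to the endothelial markers (-1.29). Tumor 5, the tumor with the lowest endothelial marker level, had the highest Flt1 relative to these markers (1.86).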

How the results depend on the processing

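Vegfb, Vegfc, Pgf, Angpt1, Angpt2 and Tek kept their direction and stayed past the threshold under all 33 alternatives tried, and Flt4 stayed on the same side without passing. Flt1 lost its call under 19 of 33 (log2 fold change -0.93 to -0.46, adjusted p 7.4e-07 to 0.162) and Kdr gained one under 10. Vegfa lost its call under 3: with library totals (0.50, adjusted p = 0.094), without kidneys 5, 7 and 8, and without these and kidney 9. Scaling by library totals or upper quartiles moved the median of all genes to -0.141 and -0.137.

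With a log2 fold change past 1 and an unadjusted p under 0.001, 2 of the 10 genes were higher, Pgf and Angpt2. Vegfa (0.66) and Vegfb (0.84) did not reach this fold limit. Of the other pathway genes 16 were higher and 9 lower. With limma-voom and quality weights 46 other pathway genes were lower. Leaving out single libraries gave 17 to 35 lower, with 18, 18 and 17 without Tumors 2, 6 and 10 (the cause was not tested). The ratio of Flt1 to Kdr turned positive without Normal kidney 9 (0.01), without kidneys 5, 7 and 8 (0.02) and without these and kidney 9 (0.19), and ranged from -0.20 to 0.01 over single libraries left out. None of these values passed. Relative to Pecam1, Cdh5 and Emcn alone, Kdr (-0.74) and Flt1 (-0.83) passed and Flt4 (0.17) did not. Without Normal kidneys 5, 7, 8 and 9 Kdr (-0.53) and Flt1 (-0.34) passed, and without Tumor 7 and Normal kidney 9 Flt1 (-0.40) did. Over single libraries left out, Kdr ranged from -0.43 to -0.06 and Flt1 from -0.42 to -0.17.

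Same-numbered tumors and kidneys had correlations of their deviations from -0.143 (number 9) to 0.377, and 8 of 10 tumors were closest to the kidney of their number. With the replicate block 4 of the 10 genes were higher and 3 lower, and Flt1 (-0.68, adjusted p = 0.067) was the one call lost. Depth limits Pgf in kidneys (8 to 34 counts in a library) and Vegfc and Angpt1 in tumors (7 and 3 counts in the lowest library).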
